A study of Rattus norvegicus with 74 samples.

Results

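A set of 8 genes of lactate, ketone body and monocarboxylate handling was followed through total RNA libraries of rat hindlimb muscle, isolated muscle mitochondria and heart. The genes, with their Ensembl identifiers in the tables, were Ldha (ENSRNOG00000013009), Ldhb (ENSRNOG00000013000), Ldhd (ENSRNOG00000019036), Slc16a1 (ENSRNOG00000019996), Slc16a3 (ENSRNOG00000036677), Bsg (ENSRNOG00000008414), Bdh1 (ENSRNOG00000001736) and Oxct1 (ENSRNOG00000043094). They were found by symbol in the deposited count tables, and all 8 had 1 row among the 30560 genes listed. All animals were wild-type male Wistar Kyoto rats, 9 weeks old at sampling, and all had drunk tap water with 8% (v/v) deuterium oxide. The trained arm (ExT) began treadmill running at an age of 5 weeks and kept it up for 4 weeks on 5 days of each, with sessions that built up to 60 min at 20 m/min. Sampling came 24 h after the last run. The sedentary arm (Sed) had spent the same time on a treadmill that stood still. The red inner part of the gastrocnemius was sequenced as whole muscle (SM) and as isolated mitochondria (MT), with 15 libraries per arm for each. The mitochondria were immunoprecipitated from a fresh piece of the muscle and cleaned up with RNase-A, then proteinase-K. Left ventricular wall (LV) was sequenced in 7 rats per arm, all of which also had SM and MT libraries.

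Lactate dehydrogenase is a tetramer of 2 kinds of subunit that interconverts pyruvate and lactate. The Ldha product, the muscle-type subunit, is abundant in fast glycolytic fibres, and the Ldhb product, the heart-type subunit, in heart and slow oxidative fibres. Ldhd encodes a separate mitochondrial enzyme that oxidises D-lactate. Lactate and ketone bodies cross the plasma membrane on proton-coupled monocarboxylate transporters. MCT1, encoded by Slc16a1, is known from oxidative muscle and heart, and MCT4, encoded by Slc16a3, from glycolytic muscle. Both need the membrane glycoprotein basigin, the Bsg product, to reach the cell surface. Inside mitochondria, Bdh1 encodes the enzyme that oxidises 3-hydroxybutyrate to acetoacetate, and Oxct1 the transferase that activates acetoacetate, the step that lets heart and muscle burn ketone bodies.

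Levels are given as CPM, counts scaled to library size, on 1 scale over all 74 libraries, set by the trimmed mean of M values (TMM). They compare libraries for 1 gene; transcript length was not corrected for, so levels of different genes are not compared. Differences are log2 ratios from edgeR's quasi-likelihood test, called at an adjusted p below 0.05 over all genes tested. Libraries held 19477976 to 39401323 counts in SM, 530397 to 9988027 in MT and 54645657 to 75758777 in LV. Genes of the mitochondrial genome took 22.1% to 35.9% of counts in SM, 12.9% to 95.4% in MT and 39.9% to 50.7% in LV. SM and MT libraries were made with a Zymo RiboFree kit from 50 ng and 10 ng of RNA, and LV libraries with an Illumina TruSeq Ribo-Zero kit from 100 ng, so tissue cannot be told apart from kit and RNA input. Summed cardiomyocyte markers were 50762 to 68366 CPM in LV and 147 to 1818 CPM in SM. Summed fast fibre markers were 79341 to 192674 CPM in SM and 31.4 to 72.2 CPM in LV.

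The sequence upstream of the start site was available for all 8 genes from RefSeq (build GRCr8), matched by symbol. The windows of 250 bases are shown for the 2 lactate dehydrogenase genes that lay in opposite directions between heart and muscle, for Slc16a3, which had the widest gap between these tissues, and for Oxct1, the member nearest to Ldhb across muscle libraries. They read 5′ to 3′ towards the gene, with each ACGTG or its reverse complement CACGT in capitals. They lie at chr1:106507842-106508091 (plus strand, Ldha), chr4:177177409-177177658 (minus strand, Ldhb), chr10:106712078-106712327 (plus strand, Slc16a3) and chr2:54963714-54963963 (plus strand, Oxct1).
Ldha: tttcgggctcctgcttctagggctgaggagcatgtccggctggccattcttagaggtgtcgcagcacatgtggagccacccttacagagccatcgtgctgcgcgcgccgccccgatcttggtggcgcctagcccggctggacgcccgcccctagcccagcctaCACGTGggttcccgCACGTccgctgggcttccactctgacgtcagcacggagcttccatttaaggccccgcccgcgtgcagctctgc
Ldhb: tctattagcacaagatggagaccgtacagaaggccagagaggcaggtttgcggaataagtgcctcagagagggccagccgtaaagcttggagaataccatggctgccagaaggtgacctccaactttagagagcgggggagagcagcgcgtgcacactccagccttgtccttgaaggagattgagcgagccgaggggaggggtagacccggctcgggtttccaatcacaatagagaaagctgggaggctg
Slc16a3: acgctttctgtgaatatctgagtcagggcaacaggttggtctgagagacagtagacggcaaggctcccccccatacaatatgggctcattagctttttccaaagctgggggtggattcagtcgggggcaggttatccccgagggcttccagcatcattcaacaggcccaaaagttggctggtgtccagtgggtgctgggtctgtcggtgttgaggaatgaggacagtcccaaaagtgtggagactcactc
Oxct1: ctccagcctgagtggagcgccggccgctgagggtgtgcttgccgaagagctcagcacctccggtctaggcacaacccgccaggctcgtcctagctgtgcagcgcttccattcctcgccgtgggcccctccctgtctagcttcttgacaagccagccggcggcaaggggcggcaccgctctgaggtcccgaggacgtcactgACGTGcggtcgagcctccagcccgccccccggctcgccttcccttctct
ACGTG is a form of the core of the site read by hypoxia-inducible factors, and it was searched on both strands. Other forms of this core, such as GCGTG, were not searched. The palindrome CACGTG, an E-box, holds ACGTG on each strand, so the 2 counts overlap. The Ldha window held 3 matches to ACGTG, of which 2 lay within 1 E-box. The Oxct1 window held 1 match, and the Ldhb and Slc16a3 windows held 0. Over all 8 members, 6 windows had ACGTG and 3 the E-box, against 16.6% and 5.59% of 33469 promoter windows of the same length. The GC box GGGCGG was in 5 member windows and 30.5% of all windows, and the nuclear receptor half-site AGGTCA in 1 member window, that of Ldhb, and 14.1% of all windows, both strands counted. The 8 member windows were 52.8% to 74% G or C, and the windows they are set beside were not matched for this. These matches describe letters in a window only.

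**Figure D1:**
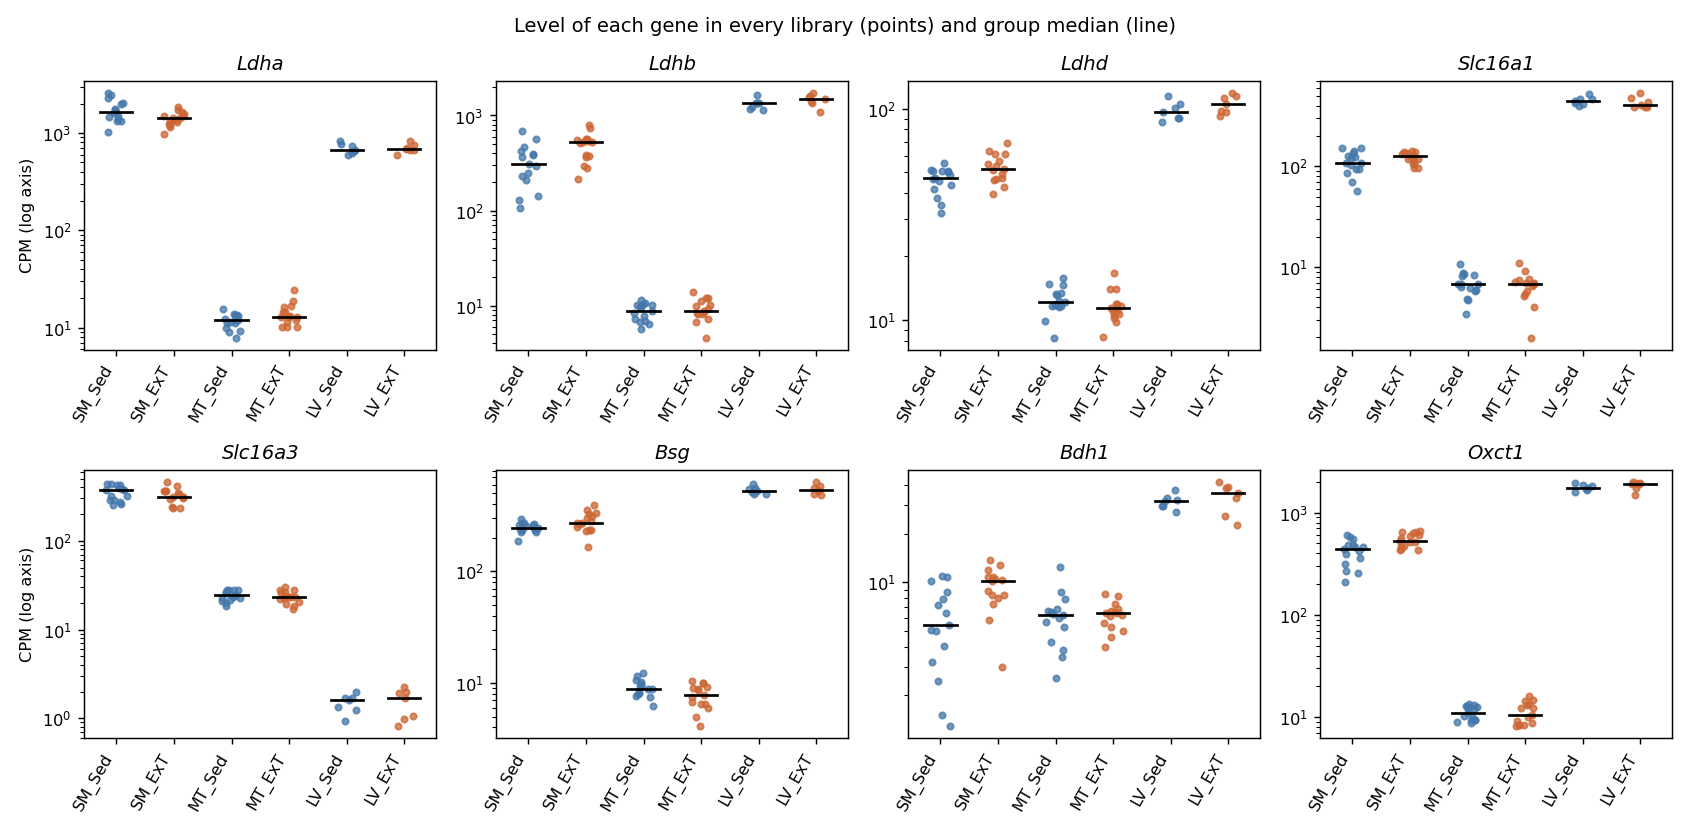
Level of each of the 8 genes in every library, in CPM on a log axis, by group. Each point is 1 library and each bar the median of its group. LV and SM points do not overlap for any of the 8 genes, and only Slc16a3 has its lowest level, 0.815 to 2.25 CPM, in LV.

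Heart and muscle were compared within each arm, using LV and SM libraries of the same 7 rats. The muscle levels quoted below cover all 15 SM libraries of an arm unless stated, on the scale of all 74 libraries. The fold differences use the 7 rats per arm, scaled within each comparison. Ratios of the quoted levels therefore need not equal these folds. All 8 members differed in both arms: Ldhb, Ldhd, Slc16a1, Bsg, Bdh1 and Oxct1 were higher in LV, and Ldha and Slc16a3 were lower. Most genes differed between these tissues. In sedentary rats 78.7% of 14367 genes were called, 40.0% higher and 38.6% lower in LV, and in trained rats 79.3% of 14338, 39.7% higher and 39.5% lower. The count of 8 members is therefore read against a high background. With library totals in place of TMM, the median of all genes moved by 0.24 and 0.20 on the log2 scale, and the share of called genes that were higher in LV went from 50.9% to 62.7% in Sed and from 50.1% to 60.0% in ExT. The median log2 difference of the 8 members was 1.23 in Sed and 1.16 in ExT, beside 0.04 and 0.01 over all genes tested. For each member the 2 tissues did not overlap in either arm, and the order held in 7 of 7 rats of each arm. All members kept their direction and their call under each of the 9 other settings tried.

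The lactate dehydrogenases moved apart. Ldha had a lowest, median and highest level of 1014, 1639.5 and 2562 CPM in SM_Sed and 974, 1426 and 1832 CPM in SM_ExT, against 598, 665 and 819 CPM in LV_Sed and 592, 684 and 819.8 CPM in LV_ExT. Every muscle library lay above every heart library. Ldha was 2.63-fold lower in LV in sedentary rats (log2 -1.40, SE 0.0996, edgeR adjusted p = 1.27e-10) and 2.22-fold lower in trained rats (log2 -1.15, SE 0.109, edgeR adjusted p = 8.57e-09). Ldha has processed copies in rodent genomes, and how reads shared with them were counted is not given in the sources used here. Ldhb ran the other way, with 107, 306 and 679 CPM in SM_Sed and 214, 525 and 803 CPM in SM_ExT, against 1129.8, 1337 and 1630.4 CPM in LV_Sed and 1096, 1480.2 and 1714 CPM in LV_ExT. The heart libraries all lay above the muscle libraries. Ldhb was 3.03-fold higher in LV in sedentary rats (log2 1.60, SE 0.122, edgeR adjusted p = 3.57e-10) and 2.91-fold higher in trained rats (log2 1.54, SE 0.160, edgeR adjusted p = 6.69e-08). In the 7 rats per arm with both tissues, the coefficient of variation of Ldhb was 19.7% in SM_Sed and 12.7% in LV_Sed, and 28.5% in SM_ExT and 13.5% in LV_ExT; these spreads were not tested against each other. Ldhd, the D-lactate enzyme, had medians of 46.9 and 52.0 CPM in SM_Sed and SM_ExT and 96.6 and 105 CPM in LV_Sed and LV_ExT. Its highest muscle library, at 68.9 CPM, was below its lowest heart library, at 86.3 CPM. The difference was 1.70-fold in sedentary and 1.78-fold in trained rats.

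The balance of the 2 main subunit genes can be put as the share of Ldhb in the summed counts of Ldha and Ldhb, which compares libraries and is not a share of protein. The share was 64.0% to 67.3% in LV_Sed and 64.9% to 69.6% in LV_ExT. It was 4.76% to 35.9% in SM_Sed, with a median of 16.95%, and 13.6% to 40.1% in SM_ExT, with a median of 26.7%. In the muscle of the 7 rats per arm that also gave an LV library, it was 11.1% to 24.3% in SM_Sed and 14.6% to 35.0% in SM_ExT, so no muscle library of these rats reached the heart's shares.

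**Figure D2:**
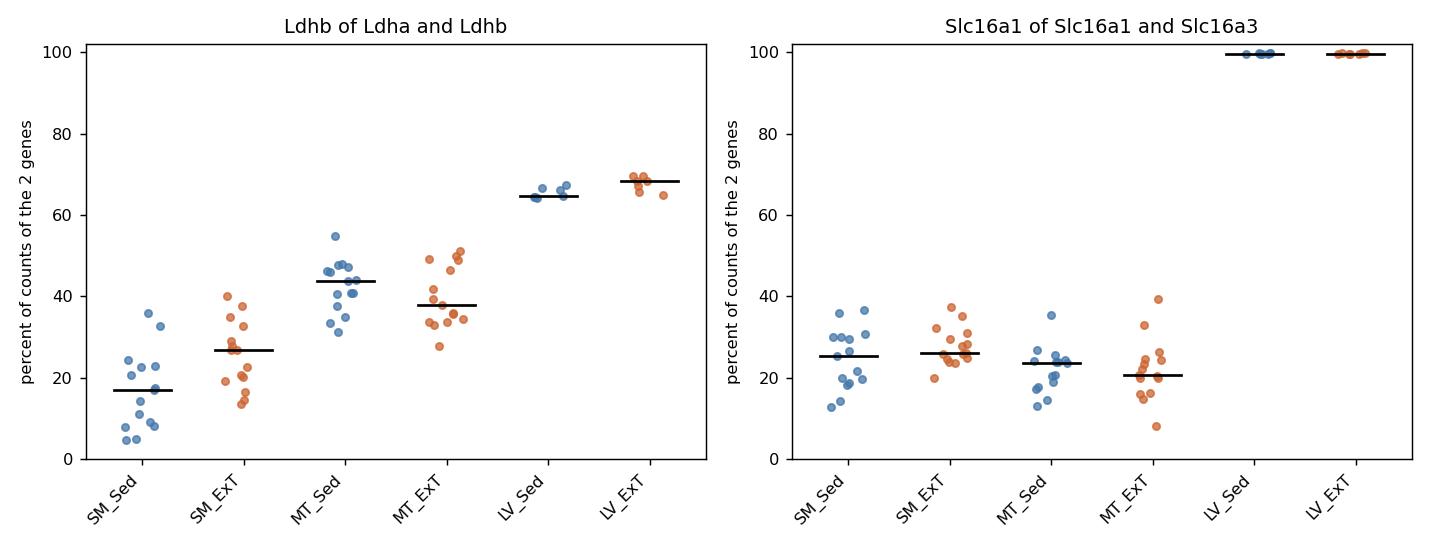
Share of Ldhb in the counts of Ldha and Ldhb, and of Slc16a1 in the counts of Slc16a1 and Slc16a3, in percent on linear axes, by group. Each point is 1 library and each bar a median; LV libraries are at 64.0% to 69.6% for Ldhb and above 99.4% for Slc16a1, with SM libraries lower in both.

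The transporter genes gave the widest gap between the tissues. Slc16a3, the MCT4 gene, had 253, 371 and 437 CPM as lowest, median and highest level in SM_Sed and 232, 311 and 459.8 CPM in SM_ExT. In LV it had 0.933, 1.61 and 1.99 CPM in Sed and 0.815, 1.70 and 2.25 CPM in ExT, which rest on 36 to 107 counts per library, above the floor of 3 counts. The groups were far apart: Slc16a3 was 251-fold lower in LV in both arms (log2 -7.97, SE 0.171, edgeR adjusted p = 1.78e-17 in Sed and log2 -7.97, SE 0.247, edgeR adjusted p = 6.00e-14 in ExT). Slc16a1, the MCT1 gene, went the other way, at 57.4, 109 and 153 CPM in SM_Sed and 96.1, 127 and 141 CPM in SM_ExT, against 393, 441 and 520.4 CPM in LV_Sed and 387, 405 and 531 CPM in LV_ExT. No muscle library reached the lowest heart library. The difference was 3.13-fold in sedentary rats (log2 1.65, SE 0.0912) and 2.96-fold in trained rats (log2 1.57, SE 0.0896), with edgeR adjusted p values of 2.56e-12 and 4.18e-12. Of the counts of both transporter genes, Slc16a1 took 12.8% to 36.6% in SM_Sed, 19.9% to 37.4% in SM_ExT, 99.5% to 99.8% in LV_Sed and 99.4% to 99.8% in LV_ExT. Bsg, the partner gene of both transporters, followed Slc16a1 in direction. Its medians were 247 and 274 CPM in SM_Sed and SM_ExT and 529 and 542 CPM in LV_Sed and LV_ExT. Bsg was 1.81-fold higher in LV in both arms (log2 0.85, SE 0.0680, and 0.86, SE 0.0802), with the highest muscle library at 391 CPM and the lowest heart library at 488 CPM.

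Both ketone oxidation genes were higher in heart. Oxct1 had 212, 445 and 600.2 CPM in SM_Sed and 431, 531 and 656 CPM in SM_ExT, against 1595, 1727 and 1939 CPM in LV_Sed and 1483, 1896 and 1993 CPM in LV_ExT. Every heart library lay well above every muscle library. The difference was 3.13-fold in sedentary rats (log2 1.65, SE 0.0850, edgeR adjusted p = 8.62e-13) and 2.96-fold in trained rats (log2 1.56, SE 0.105, edgeR adjusted p = 5.18e-11). Bdh1 had 1.28, 5.41 and 10.9 CPM in SM_Sed and 3.01, 10.2 and 13.8 CPM in SM_ExT, against 27.1, 31.9 and 37.3 CPM in LV_Sed and 22.7, 35.5 and 41.8 CPM in LV_ExT. The muscle libraries spread over a wide range and stayed below the heart. Bdh1 was 3.76-fold higher in LV in sedentary rats (log2 1.91, SE 0.171, edgeR adjusted p = 1.86e-08) and 2.76-fold in trained rats (log2 1.46, SE 0.132, edgeR adjusted p = 8.49e-09). In bulk tissue, a different share of cells of a type and a different amount of RNA per cell cannot be told apart.

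**Figure D3:**
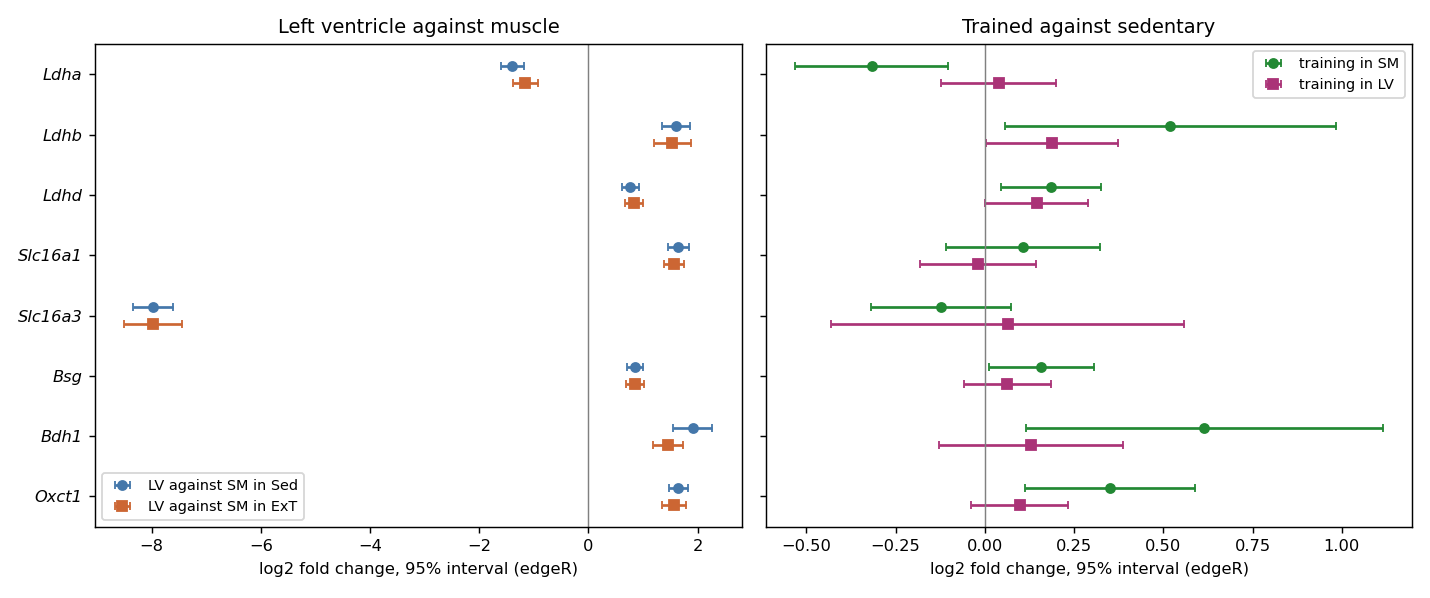
Log2 difference of each of the 8 genes for LV against SM in each arm (left) and for training in SM and in LV (right). Bars are 95% intervals of edgeR's quasi-likelihood fit. Colour and shape mark the arm (left) or the tissue (right). At an adjusted p of 0.05 over all genes, all 8 passed for LV against SM in both arms, and none for training.

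Ordered by their means, the groups followed the tissue in 7 of 8 members. The exception was Bdh1, whose MT_ExT and MT_Sed means of 6.26 and 6.18 CPM lay between the 9.39 CPM of SM_ExT and the lower mean of SM_Sed, with overlapping ranges. Sed and ExT of 1 tissue were never separated by mean ± SD, and in the other 7 members the tissues stood apart with no overlap. For Ldha the SM_Sed mean was 1739 ± 451 CPM (SD, n = 15) and the LV_Sed mean 695 ± 82.1 CPM (SD, n = 7). For Oxct1 the means were 420.1 ± 118 CPM (SD, n = 15) and 1761 ± 120.3 CPM (SD, n = 7). Slc16a3 was the only member with its lowest level in LV, in the order SM, MT, LV. MT and LV were not tested against each other, and the place of MT in these orders rests on the TMM scale.

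The wider pathway was mixed between heart and muscle. Among 9 other ketone body genes tested, 6 were higher and 2 lower in LV in sedentary rats, and 7 and 1 in trained rats. Acss1, the mitochondrial enzyme that activates acetate, was higher in LV (log2 2.28 in Sed and 2.48 in ExT), with 434 ± 67.1 CPM (SD, n = 7) in LV_Sed and 72.9 ± 17.2 CPM (SD, n = 15) in SM_Sed. Acat1, the thiolase that follows Oxct1 in ketone use, differed by 1.20 and 1.15. The median of the list was 0.80 in Sed and 0.58 in ExT, beside 0.04 and 0.01 over all genes.

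Of 14 genes of pyruvate entry into mitochondria, 6 were higher and 4 lower in LV in sedentary rats, and 6 and 3 in trained rats. Pdk1 and Pdk4, 2 kinases that switch off pyruvate dehydrogenase, differed in opposite directions: Pdk1 by 2.43 and 2.56 and Pdk4 by -2.14 and -2.02 (log2, Sed and ExT). Pdp2, a phosphatase that switches the complex on, was higher by 2.84 and 3.07, and Dlat, its acetyltransferase subunit, by 1.13 and 1.08. Among 9 genes of the cytosolic NADH shuttles, which compete with lactate dehydrogenase for NADH, 3 were higher and 5 lower in Sed, and 2 and 5 in ExT. The 2 aspartate-glutamate carriers split: Slc25a13 was higher in LV by 5.34 and 5.40, and Slc25a12 differed by -1.71 and -1.61. The glycerol phosphate shuttle enzymes Gpd1 and Gpd2 were both lower in LV, Gpd1 by -1.97 and -1.69 and Gpd2 by -2.40 and -2.42.

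Among 9 receptors and regulators tested, 3 were higher and 6 lower in LV in both arms. Ppara, a lipid-sensing nuclear receptor, was higher by 0.92 and 0.99, while Epas1, which encodes the hypoxia-inducible factor HIF-2α, differed by -1.62 and -1.65, Myc by -2.13 and -1.77, and Esrrg, an oestrogen-related receptor, by -1.47 and -1.16. Of the other monocarboxylate transporter genes and the basigin relative Emb, 4 of 9 were higher and 4 lower in Sed, and 3 and 4 of 10 in ExT. Slc16a10, an aromatic amino acid transporter gene, differed by -0.90 and -0.86. In Sed, Slc16a4 differed by -2.51 and Slc16a11 by 0.79; in ExT, Emb differed by -2.43 and Slc16a12 by 0.59. Ldhal6b, a further lactate dehydrogenase gene, was higher in LV by 3.41 in both arms, with 20.0 ± 1.24 CPM (SD, n = 7) in LV_Sed and 1.61 ± 0.576 CPM (SD, n = 15) in SM_Sed. Slow fibre genes, many of which heart also expresses, summed to 26391 to 35237 CPM in LV and 6955 to 48825 CPM in SM. Summed endothelial markers were 938 to 1221 CPM in LV and 494 to 1062 CPM in SM, and summed immune markers 112 to 194 and 58.0 to 148 CPM. The part of cell makeup in these differences was not tested.

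Training in whole muscle moved none of the 8 members past the threshold. Of 13570 genes tested, 28 were called by edgeR (0.206%), 25 higher (0.184%) and 3 lower (0.0221%) in trained rats, and 0 of 8 members were among them. DESeq2 called 136 genes and 0 members. At an unadjusted p below 0.05 stood 6 of 8 members, beside 13.7% of all genes (1860). The median log2 difference of the members was 0.17, beside -0.01 over all genes. SM_Sed and SM_ExT also serve in the comparisons with LV and MT, so these results share libraries.

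Ldha was at 1014, 1639.5 and 2562 CPM in SM_Sed and 974, 1426 and 1832 CPM in SM_ExT. The arms overlapped, and 13 of 15 trained libraries were below the sedentary median. The log2 difference was -0.32 (SE 0.106, edgeR adjusted p = 0.180). Ldhb was at 107, 306 and 679 CPM and 214, 525 and 803 CPM, again with overlap, and 12 of 15 trained libraries were above the sedentary median (log2 0.52, SE 0.226, edgeR adjusted p = 0.308). Bdh1 had the largest fitted difference of the members, 0.61 (SE 0.245, edgeR adjusted p = 0.27), with 14 of 15 trained libraries above the sedentary median. For Oxct1 it was 0.35 (SE 0.117, edgeR adjusted p = 0.181), with 12 of 15 above. Ldhd and Bsg had smaller values, 0.18 (SE 0.0693, edgeR adjusted p = 0.232) and 0.16 (SE 0.0726, edgeR adjusted p = 0.332). The transporter genes were nearest to no difference. Slc16a1 differed by 0.11 with a 95% interval of -0.11 to 0.32, and Slc16a3 by -0.12 with an interval of -0.32 to 0.07.

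The number in a library's title was read as the rat's number, and the libraries fall into rats 2 to 16 (7 per arm in SM) and 17 to 32 (8 per arm). This division comes from an earlier analysis of the same data, and the labels do not say what the numbers stand for. The members' differences stood mostly in rats 2 to 16. There Ldhb had means of 296 ± 199.5 CPM (SD, n = 7) in SM_Sed and 587 ± 144 CPM (SD, n = 7) in SM_ExT, and Ldha had 2025 ± 444 and 1446 ± 220.1 CPM (SD, n = 7 each). In rats 17 to 32 the means were 359 ± 131 and 392 ± 128 CPM for Ldhb, and 1489 ± 290.4 and 1376 ± 237 CPM for Ldha (SD, n = 8 each). Trained libraries thus lay on 1 side of the sedentary median in 7 of 7 cases for each of 7 members in rats 2 to 16, Ldhd being the exception with 6 of 7. Fitted in rats 2 to 16 alone, 396 genes and 1 member were called: Bsg, with 256 ± 24.4 CPM in Sed and 326 ± 39.9 CPM in ExT (SD, n = 7 each; log2 0.33, edgeR adjusted p = 0.0200). The other values there were 0.97 for Ldhb, 0.96 for Bdh1, 0.56 for Oxct1, 0.30 for Ldhd, 0.22 for Slc16a1, -0.32 for Slc16a3 and -0.50 for Ldha (edgeR adjusted p = 0.0555 to 0.427). Fitted in rats 17 to 32 alone, 1 gene was called and no member, and the values lay between -0.13 for Ldha and 0.39 for Bdh1, with Slc16a3 at 0.05 and Bsg at -0.01 in the direction opposite to that over all rats. The difference between the ranges was itself tested: 0 of 14033 genes were called by edgeR (1803 at an unadjusted p below 0.05, 12.8%, and 46 by DESeq2). Among members the smallest p was that of Bsg (log2 -0.34, p = 0.00819, edgeR adjusted p = 0.256).

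Fibre marker genes moved with these values. The summed slow fibre genes had medians of 15090.5 CPM in sedentary and 33370.3 CPM in trained rats 2 to 16, and 24886 and 22949.6 CPM in rats 17 to 32. The summed fast fibre genes had medians of 152410 and 112838 CPM in rats 2 to 16, and 108910 and 116900 CPM in rats 17 to 32. Over all rats, 10 of 10 slow fibre genes had a positive and 8 of 9 fast fibre genes a negative log2 difference. None was called by edgeR, and 0 slow and 8 fast fibre genes had an unadjusted p below 0.05. Markers of other cells moved too, with none called by edgeR. All 6 endothelial genes were positive (median log2 difference 0.21, 6 at an unadjusted p below 0.05), as were 6 of 6 Schwann cell and nerve genes (0.46, 2 below 0.05) and 4 of 4 red blood cell genes (0.23, 1 below 0.05). None of 6 immune genes was positive (-0.26, 3 below 0.05), nor any of 6 fibroblast (-0.17, 0 below 0.05) and 2 adipocyte genes (-0.40, 0 below 0.05). The part of fibre and cell makeup in the members' values was not tested. Of the pathway lists, 1 gene was called: Got1, a cytosolic aspartate aminotransferase of the malate-aspartate shuttle, rose from 447 ± 83.8 to 613 ± 91.8 CPM (SD, n = 15 each; log2 0.43, SE 0.0848, edgeR adjusted p = 0.0164). None of the other 8 shuttle, 14 pyruvate entry, 8 ketone, 9 transporter and 9 regulator genes tested was called by edgeR. An unadjusted p below 0.05 stood beside 3 pyruvate entry, 1 ketone, 2 transporter and 4 regulator genes.

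**Figure D4:**
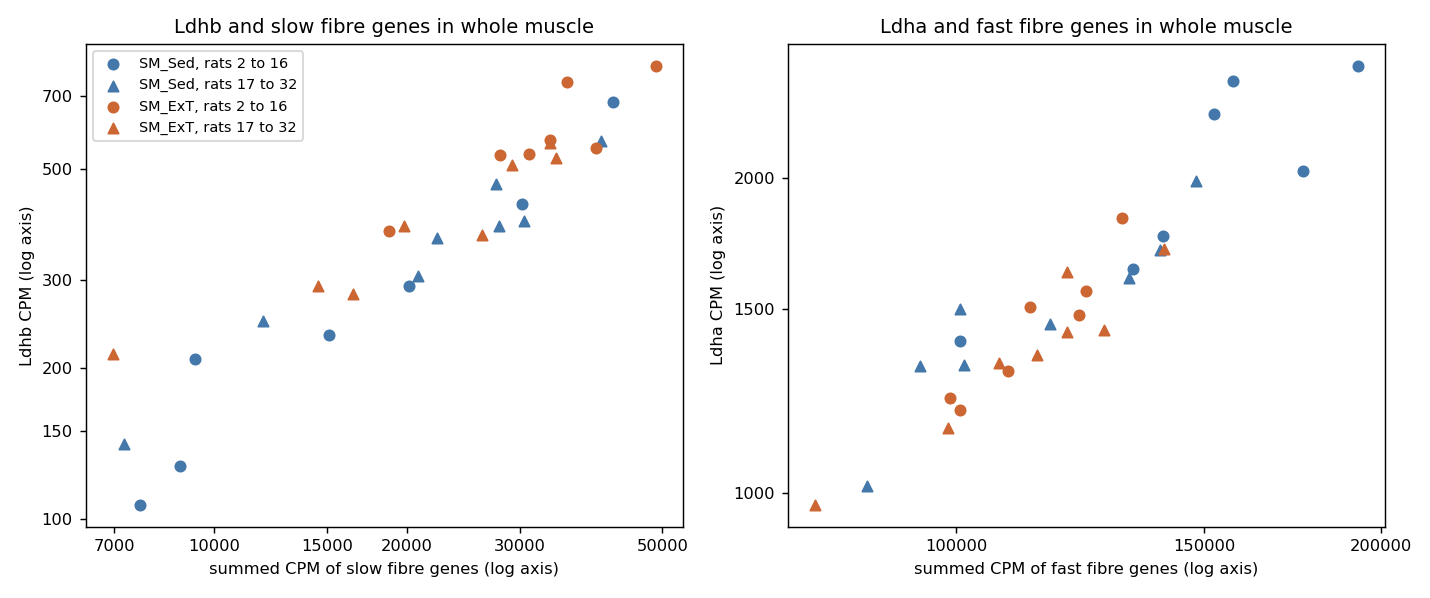
Ldhb against the summed slow fibre genes and Ldha against the summed fast fibre genes in the 30 SM libraries, in CPM on log axes. Colour gives the arm and shape the range of rat numbers; points rise together in both panels, with r = 0.95 for Ldhb and 0.91 for Ldha after the means of arm and range were subtracted.

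Across the 30 SM libraries the members fell along the fibre genes. Correlations were taken on log2 CPM after subtracting the mean of each arm and range of rat numbers in SM and the mean of each arm in LV, with permutation within these cells. In all, 72 relations were tested in SM and LV, with Benjamini-Hochberg adjustment. The libraries share their scaling and fibre mix, so these values describe libraries and not pairs of genes acting on each other. Ldhb rose with the slow fibre sum (r = 0.95, rho = 0.96, each permutation p = 1e-05, the smallest these permutations can give, adjusted 5.14e-05 and 8e-05). It stood at r = 0.94 without the 2 libraries farthest from the median of the slow fibre sum, and at 0.95 and 0.96 within the earlier and later range. Ldha rose with the fast fibre sum (r = 0.91, rho = 0.89, 0.88 without 2 libraries, 0.88 and 0.93 within ranges, with the same smallest permutation p). Slc16a3 went with Ldha (r = 0.73, rho = 0.72, permutation adjusted p = 8e-05) and with the fast fibre sum (r = 0.81). Ldha and Ldhb ran opposite to each other (r = -0.68, rho = -0.74, permutation adjusted p = 0.000745, r = -0.64 without 2 libraries). Oxct1 was the member closest to Ldhb (r = 0.96, rho = 0.94, r = 0.94 without 2 libraries), and Bdh1 and Slc16a1 followed at r = 0.87 and 0.85. Ldhd was nearest to Bsg (r = 0.79). Slc16a1 and Slc16a3 gave r = -0.32 (permutation adjusted p = 0.145). In SM, 38 of 44 relations had an adjusted permutation p below 0.05 for Pearson's r.

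The sedentary muscle of rat 8 had the lowest level of its group for Ldhb, Slc16a1, Bdh1 and Oxct1, at 107, 57.4, 1.28 and 212 CPM. Its slow fibre sum was 7659 CPM, against a group median of 20782 CPM. The lowest slow fibre sum of SM_Sed, 7255 CPM, was that of rat 24, whose levels of these 4 genes were 141, 84.9, 3.21 and 270 CPM, above those of rat 8 in each case. The trained muscle of rat 22 had the lowest level of its group for Ldhb, Ldhd, Slc16a1, Bsg, Bdh1 and Oxct1, and its slow fibre sum, 6955 CPM, was the lowest of all SM libraries. Its total of 27353327 counts lay well within the SM range.

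In the heart the 14 libraries gave another pattern. Ldha and Ldhb rose together (r = 0.85, rho = 0.89, permutation adjusted p = 0.00072, r = 0.75 without 2 libraries), where they ran opposite in muscle. Ldhd went with Ldha (r = 0.91, rho = 0.93, permutation adjusted p = 5.14e-05, r = 0.85 without 2 libraries). Slc16a1 and Slc16a3 ran opposite (r = -0.75, rho = -0.74, permutation adjusted p = 0.00899, r = -0.76 without 2 libraries), on the few Slc16a3 counts given above. In LV, 16 of 28 relations had an adjusted permutation p below 0.05 for Pearson's r. Rats 14 and 16, the 2 LV libraries of the earlier range, entered these values, and were too few for values of their own. In the 12 LV libraries of rats 17 to 32, r was 0.72 for Ldha and Ldhb, 0.85 for Ldha and Ldhd and -0.76 for Slc16a1 and Slc16a3. Summed marker genes ran along the lactate dehydrogenases in LV. The 24 further relations paired Ldha, Ldhb and Ldhd with 8 marker lists, slow and fast fibre among them. Of these relations, 15 had an adjusted permutation p below 0.05 for Pearson's r, to which the adjusted values given next belong. With the adipocyte sum, Ldha gave r = 0.88 (rho = 0.93, permutation adjusted p = 0.00234, r = 0.83 without 2 libraries), Ldhb 0.85 (rho = 0.89, permutation adjusted p = 0.00234, r = 0.71) and Ldhd 0.80 (rho = 0.90, permutation adjusted p = 0.00638, r = 0.70). With the Schwann cell and nerve sum the values were r = -0.69, -0.83 and -0.84 (rho = -0.70, -0.75 and -0.82, permutation adjusted p = 0.0162, 0.00234 and 0.00234), and with the fibroblast sum -0.59, -0.70 and -0.75 (rho = -0.62, -0.61 and -0.72, permutation adjusted p = 0.0453, 0.0299 and 0.00684). The slow fibre sum gave r = 0.56, 0.64 and 0.67 for Ldha, Ldhb and Ldhd (permutation adjusted p = 0.0648, 0.0424 and 0.0299). For the immune sum, r was -0.62, -0.61 and -0.67 (permutation adjusted p = 0.0453, 0.0349 and 0.0299). By rank (rho), the permutation adjusted p for Ldha, Ldhb and Ldhd was 0.0575, 0.0643 and 0.026 with the fibroblast sum. With the immune sum it was 0.143, 0.0804 and 0.094, and with the slow fibre sum 0.0327, 0.094 and 0.0321. The adipocyte and the Schwann cell and nerve sums stayed below 0.05 by rank for each of these genes. The part of cell makeup in the members' correlations in LV was not tested. Whether these correlations differ between muscle and heart was not tested.

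**Figure D5:**
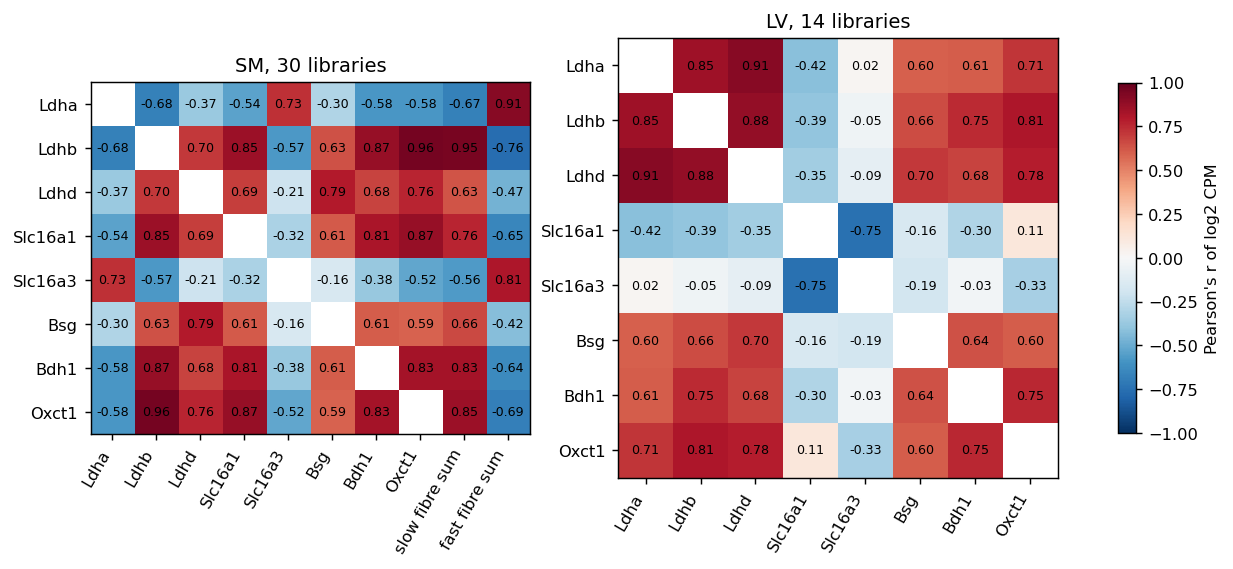
Pearson correlation of log2 CPM between members across the 30 SM libraries (left, with the summed slow and fast fibre genes) and the 14 LV libraries (right), after subtracting the means of arm and range (SM) or of arm (LV). Red is positive and blue negative; Ldha and Ldhb have r = -0.68 in SM and 0.85 in LV.

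The 3 genes nearest to each member were sought among 9597 genes with a symbol and at least 5 CPM on average in SM, by the same measure over 30 libraries, as a description. Nearest to Ldha were Myoz1, a Z-disc gene of fast fibres (r = 0.94), the glycolytic gene Pkm (0.94) and the phosphorylase kinase subunit gene Phkb (0.93). Nearest to Ldhb were Pla2g12a (0.98), the glycogen branching enzyme gene Gbe1 (0.97) and Galnt5 (0.96). Nearest to Oxct1 were Ldhb itself (0.96), the mitochondrial transhydrogenase gene Nnt (0.95) and the fatty acid oxidation gene Acadvl (0.95). Bdh1 also had Ldhb among its nearest (0.87), after Kremen1 (0.89) and before Ephx1 (0.87). Ldhd was nearest to Bckdha (0.91), which encodes a subunit of branched-chain ketoacid dehydrogenase, and to the respiratory chain genes Cyc1 (0.90) and Atp5f1b (0.89). Slc16a1 was nearest to Mgst3 (0.90), the sodium pump subunit gene Atp1b1 (0.88) and Pla2g12a (0.87). Slc16a3 was nearest to Nos1 (0.89), Jph1 (0.88) and the glycolytic gene Pgam2 (0.87), and Bsg to Pebp1 (0.93), Acads (0.91) and Txn2 (0.89).

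Training in the left ventricle gave no called gene. Of 14488 genes, 0 were called by edgeR (0%), with 855 at an unadjusted p below 0.05 (5.90%) and 1 by DESeq2. Of the 8 members, 2 had an unadjusted p below 0.05. Ldhb had medians of 1337 CPM in LV_Sed and 1480.2 CPM in LV_ExT, with 6 of 7 trained libraries above the sedentary median and overlapping ranges. Its log2 difference was 0.19 (SE 0.0876, 95% interval 0.00334 to 0.37, p = 0.0464, edgeR adjusted p = 0.804). Ldhd differed by 0.14 (SE 0.0689, p = 0.0499, edgeR adjusted p = 0.804), again with 6 of 7 above. The other 6 members lay between -0.02 for Slc16a1 and 0.13 for Bdh1. The interval of Slc16a1 was -0.18 to 0.14 and that of Slc16a3 -0.43 to 0.56. A difference of Slc16a3 anywhere within that wider interval remains compatible with these libraries. Each LV arm held 1 library of rats 2 to 16, and these stood at the ends of their groups. Rat 16 had the highest level of LV_Sed for Ldha, Ldhb, Ldhd, Bsg, Bdh1 and Oxct1, and rat 14 the lowest of LV_ExT for the same 6 genes. Rat 16 also had the highest and rat 14 the lowest slow fibre sum of their groups, at 32731 and 26391 CPM. Without both, Ldhb differed by 0.29, Bdh1 by 0.24, Ldhd by 0.20 and Oxct1 by 0.16, and 0 genes were called (edgeR adjusted p = 0.322 to 0.396 for these 4). The training difference in LV minus that in SM was taken with SM libraries of only the 14 rats that also gave LV. In SM too, these held 1 library of rats 2 to 16 per arm. The interaction is therefore not the LV value minus the training value of all SM libraries given above. It was called for 0 of 15049 genes (687 at an unadjusted p below 0.05, 4.57%, and 1 by DESeq2). The members' interaction values ran from -0.43 (Bdh1, p = 0.0670) to 0.26 (Ldha, p = 0.0871), with an edgeR adjusted p of 0.999976 for all 8.

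In isolated mitochondria the members were near the bottom of the scale. Their counts were 4 to 125 per library and gene, so MT levels carry the counting error of such small numbers. Against SM, 94.8% of 22842 genes were called in sedentary rats, 61.7% higher and 33.1% lower in MT, and 94.3% of 21312 in trained rats, 59.3% higher and 35.0% lower. Members were lower in 7 of 8 cases in Sed and 8 of 8 in ExT. Their median log2 difference was -4.25 and -4.50, beside 1.81 and 1.31 over all genes. Of 5797 nuclear genes at 0 counts in every SM and LV library, 5331 had counts in MT.

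Ldha, a cytosolic enzyme's gene, had 7.93, 12.0 and 15.5 CPM as lowest, median and highest level in MT_Sed and 10.2, 12.9 and 24.4 CPM in MT_ExT. It lay far below every SM library, 133-fold lower in Sed (log2 -7.06, SE 0.142) and 87.6-fold in ExT (log2 -6.45, SE 0.125), with edgeR adjusted p values of 1.22e-39 and 1.02e-40. Ldhb and Oxct1 were lower by -5.09 and -5.51 and by -5.08 and -5.39 on the log2 scale (Sed and ExT), Bsg by -4.62 and -4.98, Slc16a1 by -3.88 and -4.01, and Slc16a3 by -3.71 and -3.58. Slc16a3 levels were 16.9 to 30.2 CPM in MT, and those of Ldhd 8.26 to 16.7 CPM. Of the 2 genes for mitochondrial matrix enzymes of ketone use, Oxct1 was far below muscle. Bdh1 ranged from 2.55 to 12.4 CPM in MT and overlapped with its low SM range of 1.28 to 13.8 CPM in both arms. List genes with almost no counts in SM had like levels in MT. In MT_Sed the means were 9.89 CPM for Slc5a8, 7.06 for Slc5a12 and 2.87 for Oxct2a, beside 11.1 for Oxct1 and 6.18 for Bdh1. The SM_Sed means of the first 3 were 0.00666, 0.00365 and 0 CPM. Whether the members' MT levels exceed such a background was not tested. Bdh1 differed by 0.18 (edgeR adjusted p = 0.550) in Sed and -0.37 (edgeR adjusted p = 0.0208) in ExT. Ldhd differed by -1.73 and -1.99. These 2 small differences rest on the scaling. With library totals in place of TMM, the median of all genes moved by 1.62 and 1.61, the share of called genes that were higher in MT went from 65.1% to 86.2% in Sed and from 62.9% to 86.5% in ExT, Ldhd went to -0.15 and -0.35 (edgeR adjusted p = 0.551 and 0.284) and Bdh1 to 1.94 and 1.29, while the other 6 members stayed lower. With all libraries thinned to the smallest total, Ldhd stood at 0.28 and -0.28 (edgeR adjusted p = 0.728 and 0.775), Bdh1 was too low to test, and the other 6 were called lower in both arms.

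The lists around the members split in MT. Pyruvate entry genes were lower in 12 of 14 cases and NADH shuttle genes in 8 of 9 in both arms, while 12 of 14 other monocarboxylate transporter genes and 2 of 2 other lactate dehydrogenase genes were higher, the side on which most genes lay. Training called 0 of 19281 genes in MT by edgeR (912 at an unadjusted p below 0.05, 4.73%, and 0 by DESeq2). The largest member value was 0.26 for Ldha (p = 0.0197, edgeR adjusted p = 0.999736), with 10 of 15 trained libraries above the sedentary median. The training difference in MT minus that in SM was called for 5 of 27684 genes (0.0181%) and 0 members, of which 4 had an unadjusted p below 0.05, beside 8.50% of all genes. The smallest was that of Ldha (log2 0.55, SE 0.160, p = 0.000844, edgeR adjusted p = 0.254), followed by Bsg (-0.41, SE 0.145, edgeR adjusted p = 0.388).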

How the data were processed

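The deposited values were raw counts per gene in 1 table per tissue, with an Ensembl identifier and a symbol for each gene. Per the submitters' processing notes, the authors used FastQC 0.74, cutadapt 4.6, STAR 2.7.11a and HTSeq with build mRatBN7.2. The annotation, the strand setting and the treatment of reads that match several places are not given in the sources used here.

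Groups were taken from the labels. Genes were filtered with filterByExpr (minimum count 10), scaled by TMM and tested with edgeR 4.0.16 (glmQLFit, robust, and glmQLFTest; two-sided) in R 4.3.3 with limma 3.58.1. P-values were adjusted over all genes tested by the Benjamini-Hochberg method. DESeq2 1.42.0, other scalings, no filter, nuclear genes alone, rat ranges, thinning, a rat block and leaving out each library were alternatives. The code was tested on simulated counts. CPM and log2 values were computed here. Levels and correlations used Python 3.11.15, numpy 2.4.6, pandas 2.3.3 and scipy 1.17.1. Correlations used 100000 permutations within arm and rat range (SM) or arm (LV).

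The members and lists were chosen with earlier results of these data known. Named genes were all members, up to 4 called genes per list and comparison by size of log2 difference with a mean of at least 1 CPM in a group, and the 3 genes nearest to each member in SM. A few list genes that this rule names are not reported here. Genes of the lists with no row under their symbol were not analysed here. Libraries of 1 rat share an animal per the labels' numbering. Their deviations from group means had a median correlation of 0.0169 (MT and SM, 30 rats) and 0.0544 (LV and SM, 14 rats), against 0.00159 and -0.00434 between different rats. In the closest pair of libraries of a group, counts differed by 1.20 times sampling noise in MT_ExT and 1.48 times in MT_Sed (chi-square per degree of freedom). The closest pairs stood at 13.5 in SM_Sed, 13.9 in SM_ExT, 15.2 in LV_Sed and 22.9 in LV_ExT. No library was counted as a duplicate.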

Additional observations from a re-analysis of the deposited data

How the results depend on the processing

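For training in SM, the 28 genes called became 136 with DESeq2, 45 with rat range as a covariate, 1 in rats 17 to 32 and 396 in rats 2 to 16, where 1 member was called. Leaving out each library in turn gave 12 to 100 genes (12 without SM_Sed 4, 8 or 12 or SM_ExT 27, 13 without SM_ExT 5, 10 or 14, 14 without SM_Sed 7 or 20 or SM_ExT 6, 16 without SM_ExT 25, 18 without SM_Sed 24, 46 without SM_Sed 30, 69 without SM_Sed 29, 100 without SM_Sed 23) and 0 members. Training in LV and the LV interaction each went from 0 to 1 gene with DESeq2, the range interaction from 0 to 46. MT against SM gave 3930 (Sed) and 1988 (ExT) genes after thinning, with fewer genes tested. The MT interaction went from 5 genes to 0 with library totals, 32 with DESeq2, 1 in rats 17 to 32 and 20 in rats 2 to 16. The causes were not tested.

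Members changed sign only where values were small, except Bdh1 and Ldhd in MT against SM. With library totals these were training in MT for Bdh1 (-0.0457) and Oxct1 (-0.00298), MT against SM in ExT for Bdh1 (1.29) and the LV interaction for Slc16a3 (-0.0391) and Bsg (-0.0370). In rats 17 to 32 they were Slc16a3 (0.0481) and Bsg (-0.00675) for training in SM, Slc16a3 (0.0432) in MT and (-0.0424) in LV, Bdh1 (-0.19) in MT against SM in Sed, Ldhb (0.11), Slc16a3 (-0.0707) and Oxct1 (0.0132) in the LV interaction and Slc16a3 (-0.0212) in the MT interaction. In rats 2 to 16 they were Bdh1 (-0.14) and Oxct1 (-0.11) for training in MT. Bdh1 in MT against SM in ExT was 0.0112 with relative log expression factors and 0.00722 with DESeq2, and Ldhd in Sed was 0.28 after thinning. Leaving out 1 library, training in LV ranged from -0.00781 to 0.0727 for Ldha, -0.0695 to 0.0274 for Slc16a1 and -0.0627 to 0.17 for Slc16a3, and training in MT from -0.00163 to 0.15 for Bdh1, -0.0266 to 0.0529 for Oxct1 and -0.10 to 0.00610 for Slc16a1. The other member values kept their direction in every setting run.

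With the rat as a block, the pairing changed no member's call. The MT interaction went from 5 to 3 genes, and LV against SM gave 11174 (Sed) and 11224 (ExT) genes, MT against SM 21628 and 20069. Depth limits MT, where members had 4 to 125 counts, and Slc16a3 in LV.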
